A study of Mus musculus with 7 samples.

Results

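The SLC25 proteins are the mitochondrial carriers, a family of membrane transporters that move nucleotides, phosphate, amino acids, carboxylates, cofactors and iron across the inner membrane of mitochondria. Their transcripts were read in neuron-enriched cells of mouse dorsal root ganglia, which house the sensory neurons of the limbs and trunk, after injury of the sciatic nerve. Members were taken by name, as every gene of the deposited table whose symbol was Slc25a followed by a number, which gave 47 of 54309 genes. Per the labels, all mice were male C57bl/6 animals aged 6 to 8 weeks. Zeitgeber time (ZT) is clock time in hours since the lights came on, and the nerve was injured at ZT 20 for 4 samples and at ZT 8 for 3 samples. Lumbar ganglia L4-6 were taken 72 h later, which is a whole number of days, so the hour of injury and the hour of dissection cannot be told apart. All groups were injured, and no uninjured sample was analysed here. The labels do not say how many animals went into a library or whether replicates were separate animals, so the p-values below measure only the spread between these samples.

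Carriers are made in the cytosol, pass the outer membrane through the TOM complex and are placed into the inner membrane by the TIM22 complex. Most work as exchangers, bringing in one substrate for another that leaves. The ADP/ATP carriers and the phosphate carrier supply ATP synthase and are among the most abundant proteins of the inner membrane. In neurons the aspartate/glutamate carrier is part of the malate-aspartate shuttle, which brings the reducing power of cytosolic NADH into mitochondria.

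Some properties of the libraries bear on every result. Y-linked transcripts disagreed with the label male in ZT20 replicates 3 and 4, where Ddx3y, Eif2s3y and Uty were listed at 0, while Xist was at 1.08 to 2.30 TPM in ZT20 replicates 2, 3 and 4 and at most 0.00467 TPM elsewhere. Genes above 0 TPM (transcript abundance corrected for length and scaled to the same total in each sample) numbered 24192 to 25238 in the ZT20 samples. They numbered 22541, 18297 and 22973 in ZT8 replicates 1, 2 and 3, so every ZT8 library had fewer than every ZT20 library. The part of this split in the differences below was not tested. Library identifiers used numbers at ZT20 and letters at ZT8, and what this naming stands for cannot be told apart from the group. All 12 listed neuron markers were detected at a mean of at least 1 TPM, and their summed level was 18698 to 22494 TPM at ZT20 and 14495 to 20735 TPM at ZT8. Satellite glia markers summed to 7991 to 9666 TPM at ZT20 and 13081 to 15965 TPM at ZT8, with no marker at 0 everywhere and 3 of 8 lower at ZT20, Apoe and Fabp7 among them. Most of that sum was Apoe, and the other 7 markers summed to 1730.1 to 2051 TPM at ZT20 and 2408 to 2458 TPM at ZT8. S100b, Kcnj10 and Cdh19 had positive log2 differences of 0.29, 0.21 and 0.38 and did not pass. Macrophage markers (8 genes) summed to 104 to 153 TPM at ZT20 and 158 to 360 TPM at ZT8, with C1qa lower and Mrc1 higher at ZT20. Plasma cell markers (5 genes) summed to 267 to 486 TPM at ZT20 and 496 to 935 TPM at ZT8, with Mzb1 lower at ZT20. Schwann cell myelin markers (6 genes) summed to 1121 to 1254 TPM at ZT20 and 903 to 1296 TPM at ZT8, and no marker of these 3 lists was at 0 everywhere. In such mixed samples fewer cells of a type and less RNA per cell cannot be told apart, and the part of cell mixture in the results was not tested beyond the marker score covariate reported below.

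Promoter sequence is shown first for 3 carriers whose transcripts differed between the groups and whose RefSeq promoter window (250 bases before to 50 after the start, GRCm38.p6) holds an E-box, the 6 letters CACGTG bound by CLOCK and its partner. Each run below is 120 bases, 5′ to 3′ on the strand of the gene, with the E-box in capitals. Slc25a33 and Slc25a36 are the pair of pyrimidine nucleotide carriers, and Slc25a14 is a relative of the uncoupling proteins.
Slc25a33, chr4:149774268-149774387, minus strand: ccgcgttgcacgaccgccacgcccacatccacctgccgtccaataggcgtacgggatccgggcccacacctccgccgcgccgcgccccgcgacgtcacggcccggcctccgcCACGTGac
Slc25a36, chr9:97111162-97111281, minus strand: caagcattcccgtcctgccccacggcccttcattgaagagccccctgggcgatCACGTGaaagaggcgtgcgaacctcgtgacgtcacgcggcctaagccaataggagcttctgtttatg
Slc25a14, chrX:48623293-48623412, plus strand: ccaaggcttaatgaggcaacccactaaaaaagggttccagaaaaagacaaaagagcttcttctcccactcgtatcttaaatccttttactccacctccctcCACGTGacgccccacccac
Of the 6 carriers past the threshold 5 were matched to a window (all but Slc25a37), and 3 of those held an E-box, while Slc25a17 and Slc25a42 did not. The E-box began 8 bases before the start in Slc25a33, 187 before it in Slc25a36 and 54 before the first of the listed starts in Slc25a14. CACGTG is its own reverse complement, so the search covers both strands. Windows were given for 36 of the 47 members, and 7 of the 36 held the letters (Slc25a1, Slc25a13, Slc25a14, Slc25a15, Slc25a31, Slc25a33 and Slc25a36), against 8.09% of all 27025 genes with a window. Slc25a36 also held the cyclic AMP response element TGACGTCA, which is its own reverse complement as well and was found in 2 of the 36 members and in 2.03% of all genes. The D-box TTATGTAA and the NRF1 site, each searched on both strands, were found in 0 of the 36 members and in 1.11% and 1.07% of all genes. All genes with a window were taken without matching for expression, gene type or GC content, so their shares are not a like background for the members. No enrichment was tested. A match is a run of letters and not evidence of binding.

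The family was carried by a few transcripts. TPM is corrected for length within a sample, so levels can be compared between genes. Summed over all 47 members the family came to 5389, 4683, 5105 and 5212 TPM in the ZT20 samples and 5531, 4748 and 6273 TPM in the ZT8 samples. The groups overlapped, and ZT8 replicate 3 was the highest sample. The ADP/ATP carriers Slc25a4 and Slc25a5 together held 55.0% to 57.6% of the family sum at ZT20 and 58.2% to 59.8% at ZT8, without overlap. With the phosphate carrier Slc25a3 they held 68.1% to 70.9% at ZT20 and 70.0% to 73.0% at ZT8, and those ranges overlapped. On average over all samples 8 members were above 100 TPM, 17 between 10 and 100 TPM and 16 between 1 and 10 TPM. The remaining 6 members had a mean under 1 TPM and were not tested. They were Slc25a21, the oxodicarboxylate carrier, at 0.0157 to 1.46 TPM, Slc25a34 at 0 to 0.701 TPM, Slc25a48 at 0 to 0.0748 TPM and Slc25a54 at 0 to 0.0852 TPM. The testis ADP/ATP carrier Slc25a31 was listed at 0 in 5 of 7 samples and reached 0.0644 TPM, and Slc25a41 was listed at 0 in every sample.

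**Figure D1:**
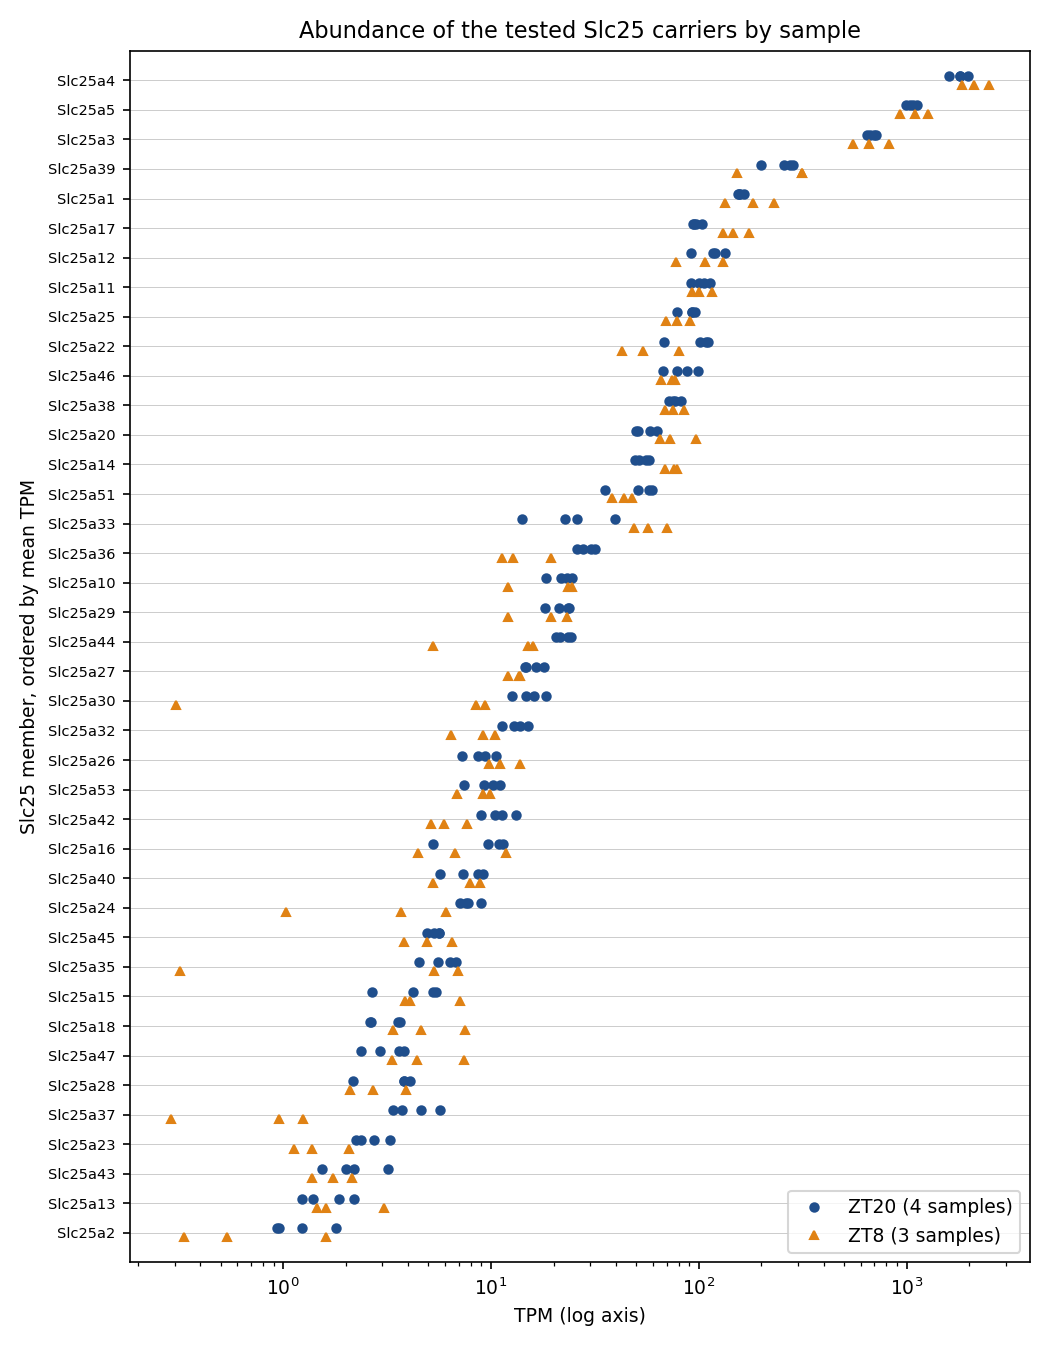
TPM (log axis) of 40 of the 41 tested Slc25 members in each sample, ordered by mean level, with circles for the 4 ZT20 samples and triangles for the 3 ZT8 samples. Slc25a4 stands highest at 1606 to 2486 TPM, and in most rows the symbols of the groups overlap; single low triangles in Slc25a30, Slc25a35 and Slc25a24 are ZT8 replicate 2.

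Differences between ZT20 and ZT8 were tested with limma on log2(TPM + 1) over the 14800 genes that averaged 1 TPM or more, with Benjamini-Hochberg adjustment over all of them. Of the 41 tested members 6 passed an adjusted p-value of 0.05: the pyrimidine nucleotide carrier Slc25a36, the coenzyme A carrier Slc25a42 and the iron carrier Slc25a37 were higher at ZT20, and the pyrimidine nucleotide carrier Slc25a33, the peroxisomal cofactor carrier Slc25a17 and the uncoupling protein-like Slc25a14 were lower. That is 14.6% of the tested members, close to the 16.4% of all genes that passed. In each direction 7.32% of the members passed, against 12.8% of all genes for higher and 3.61% for lower, and counts of 3 carry no statement about the family. An unadjusted p-value under 0.05 was reached by 12 of the 41 members and by 34.6% of all genes. The groups did not overlap in 13 of the 41 members, 9 with ZT20 above and 4 with ZT20 below, against 33.2% of all genes (24.5% above and 8.72% below). The median log2 difference (ZT20 minus ZT8, here and below) was 0.15 over the tested members and 0.23 over all genes, so small differences depend on the scaling between samples. Of all genes that passed, 78.1% were higher at ZT20. That share was 46.4% after median-ratio scaling, which moved the median of all genes to 0.014, 55.7% after quantile normalization and 39.8% after each sample was corrected for transcript length and GC content.

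**Figure D2:**
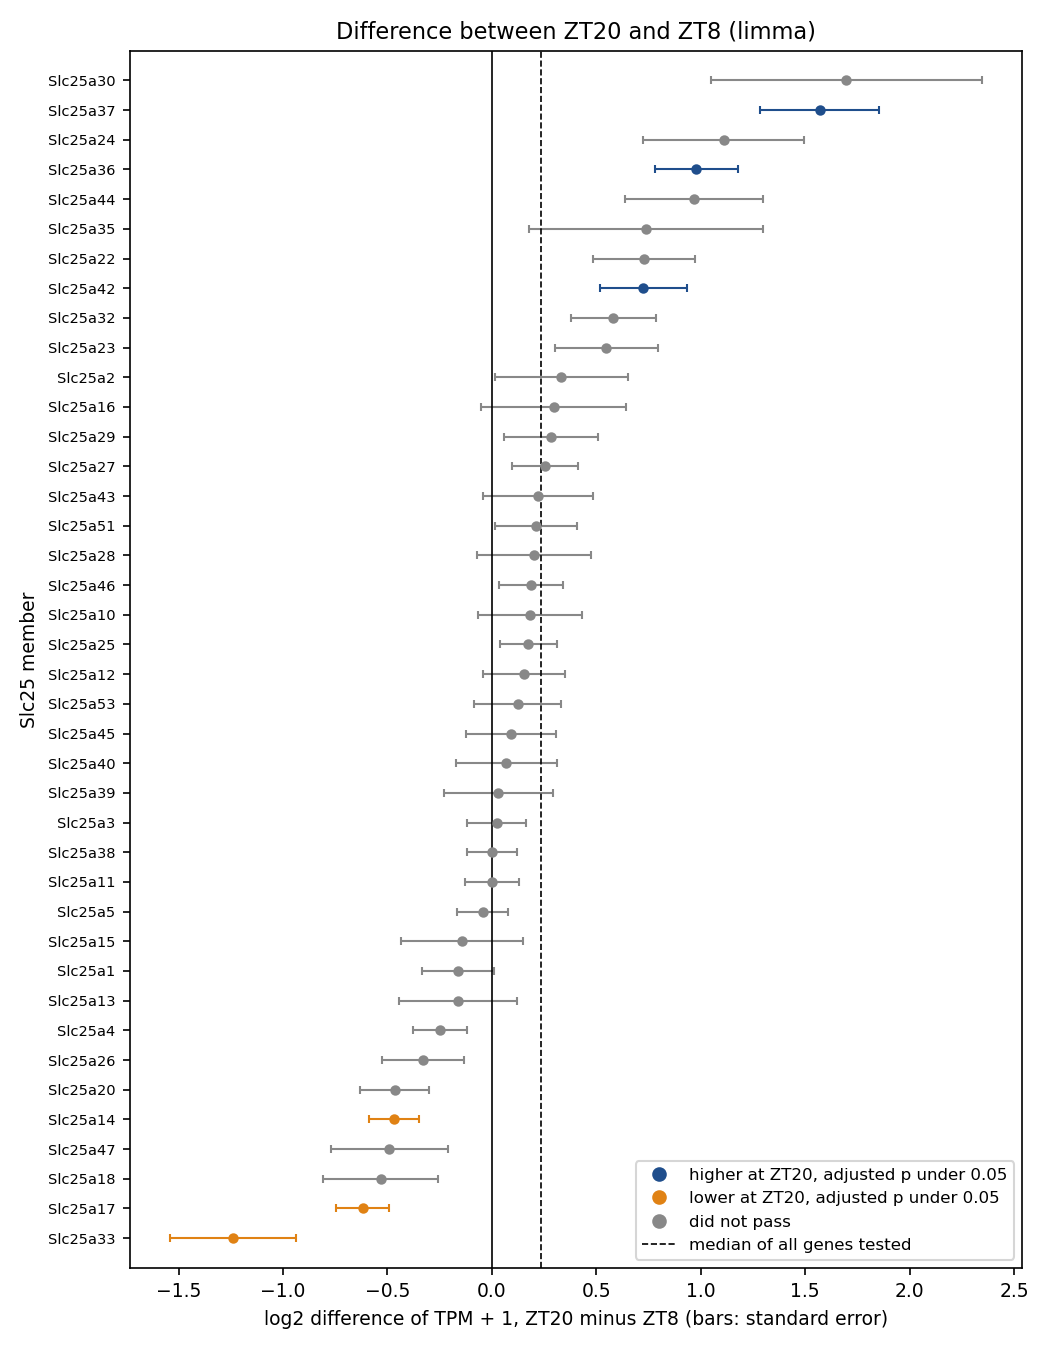
Log2 difference in TPM + 1 (ZT20 minus ZT8) of 40 of the 41 tested Slc25 members with its standard error, from limma. The 3 blue members were higher and the 3 orange members lower at ZT20 at an adjusted p-value under 0.05; the dashed line marks the median of all genes, 0.23, and Slc25a30 stands at the top on this scale, at 1.70, with the widest error.

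The pyrimidine nucleotide carriers, which exchange pyrimidine nucleotides between cytosol and matrix for mitochondrial DNA and RNA synthesis, differed in opposite directions. In the order of the replicate numbers, here and below, Slc25a33 (ENSMUSG00000028982) was at 14.2, 39.3, 25.9 and 22.7 TPM at ZT20 and at 48.7, 70.3 and 56.7 TPM at ZT8. All 4 ZT20 samples lay below all 3 ZT8 samples, with ZT20 replicate 2 nearest to them. The mean was 25.5 ± 10.5 TPM at ZT20 (SD, n = 4) against 58.6 ± 10.9 TPM at ZT8 (SD, n = 3), and the difference came to −1.24 ± 0.30 on the log2 scale (SE; limma adjusted p = 0.0284). Slc25a36 (ENSMUSG00000032449) was at 25.8, 27.8, 31.7 and 30.3 TPM at ZT20 and at 12.8, 19.4 and 11.4 TPM at ZT8. Here every ZT20 sample lay above every ZT8 sample. The mean was 28.9 ± 2.61 TPM at ZT20 (SD, n = 4) against 14.5 ± 4.27 TPM at ZT8 (SD, n = 3), and the difference came to 0.98 ± 0.20 on the log2 scale (SE; limma adjusted p = 0.0157). The TPM ratio of Slc25a33 to Slc25a36 within a sample, which 1 scaling factor per sample cannot change, was 0.548, 1.42, 0.816 and 0.749 at ZT20 and 3.82, 3.63 and 5.00 at ZT8. The more abundant of the pair was thus Slc25a33 in every ZT8 sample and Slc25a36 in every ZT20 sample but replicate 2. With both genes apart between the groups in opposite directions, their ratio had to be apart too and adds no separate evidence. On the log2 scale of TPM + 1 the ratio averaged −0.26 in the 4 ZT20 samples (SD 0.55) and 1.96 in the 3 ZT8 samples (SD 0.23). The difference in that log2 ratio was −2.22, and it was −1.81 with values corrected for length and GC content. The same correction kept Slc25a33 past the threshold at −1.26 (limma adjusted p = 0.0484; 0.0183 to 0.399 over its alternatives) and left Slc25a36 short of it at 0.56 (limma adjusted p = 0.0945; 0.00365 to 0.685 over its alternatives). Without ZT8 replicate 2 Slc25a33 did not pass, at −1.10 (limma adjusted p = 0.0580), and Slc25a36 passed at 1.19. In GENCODE M21 each of the pair overlaps an antisense gene, and whether reads were assigned by strand is not given in the sources used here.

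**Figure D3:**
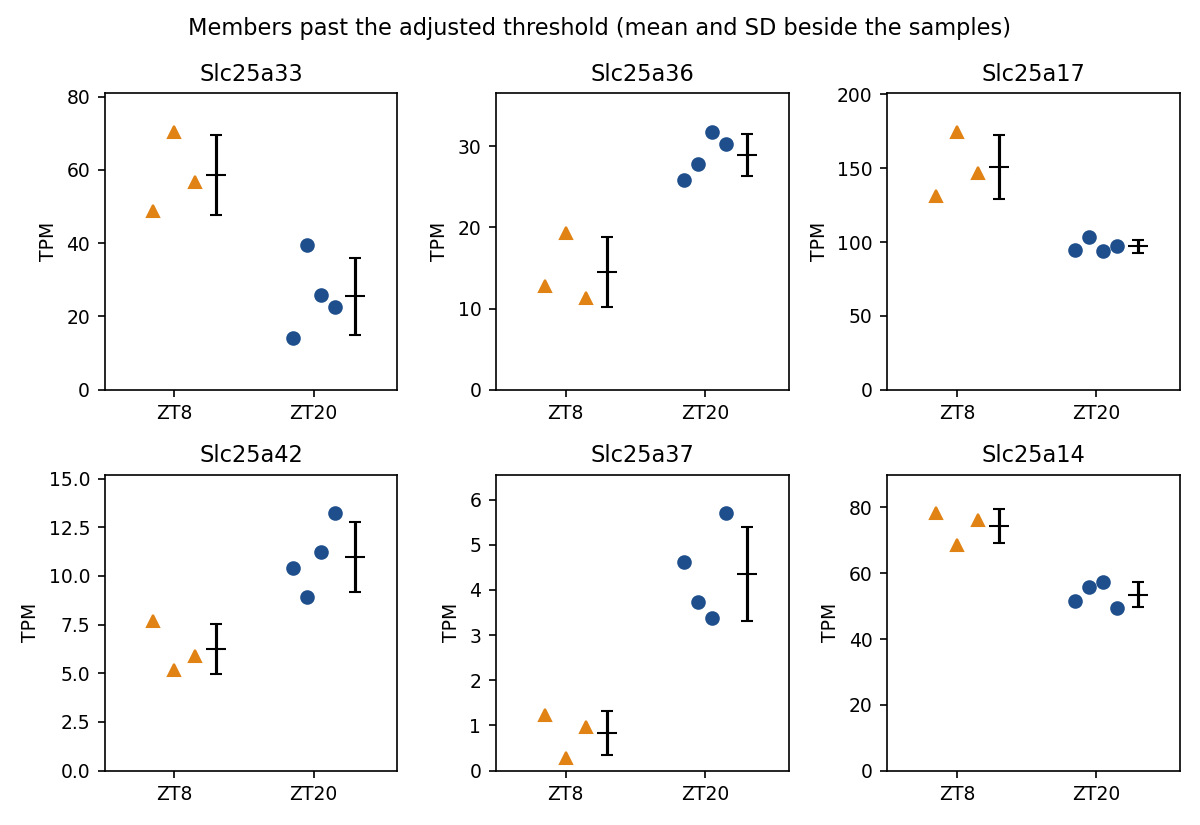
TPM by sample of the 6 Slc25 members past the adjusted threshold, with triangles for ZT8 (3 samples), circles for ZT20 (4 samples) and the mean with SD beside them; each vertical axis starts at 0. In every panel the groups are apart, and the narrowest gap relative to its level is that of Slc25a42, from 7.69 to 8.92 TPM.

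Cofactor carriers made up the rest of the nucleotide and cofactor group, of whose 9 tested members 2 were higher and 2 lower at ZT20, where 12.8% of all genes were higher and 3.61% lower. Slc25a17 (ENSMUSG00000022404), a carrier of the peroxisomal membrane for coenzyme A, FAD and NAD, was at 94.3, 103, 94.0 and 97.2 TPM at ZT20 and at 131, 174 and 147 TPM at ZT8. It was lower in all 4 ZT20 samples, which differed little among themselves. The difference came to −0.62 ± 0.13 on the log2 scale (SE; limma adjusted p = 0.0159). Slc25a42 (ENSMUSG00000002346), which brings coenzyme A into the matrix, was at 10.4, 8.92, 11.2 and 13.2 TPM at ZT20 and at 7.69, 5.15 and 5.91 TPM at ZT8. The groups did not overlap, and the difference came to 0.72 ± 0.21 on the log2 scale (SE; limma adjusted p = 0.0475). It was the called member least stable to the processing, past the threshold in 4 of 18 alternatives. Slc25a32, a carrier of folate or FAD, was at 13.0, 11.2, 13.9 and 15.1 TPM at ZT20 and at 9.11, 10.4 and 6.44 TPM at ZT8. Its groups did not overlap either, but its log2 difference, 0.58, was short of the threshold (limma adjusted p = 0.0835) unless ZT8 replicate 2 was left out (0.71, limma adjusted p = 0.0362; 0.0362 to 0.780 over its alternatives). The Slc25a32 difference was 0.25 under quantile normalization, 0.35 under median-ratio scaling and 0.091 with values corrected for length and GC content. The NAD carrier Slc25a51 (35.4 to 59.4 TPM over all samples), the S-adenosylmethionine carrier Slc25a26 (7.29 to 13.8 TPM) and Slc25a16 (4.44 to 11.9 TPM) overlapped between the groups and did not pass.

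Iron carriers were at low levels. Slc25a37 (ENSMUSG00000034248), the mitoferrin that supplies iron for heme in developing red cells, was at 4.62, 3.73, 3.38 and 5.70 TPM at ZT20 and at 1.24, 0.287 and 0.958 TPM at ZT8. All ZT20 samples were above all ZT8 samples, and the group means were 5.26-fold apart. The ZT8 mean was under 1 TPM, so the size of that fold is uncertain. Slc25a37 met the filter of 1 TPM through its ZT20 samples, and it was not in the fit with the filter of 5 TPM. The difference came to 1.57 ± 0.29 on the log2 scale (SE; limma adjusted p = 0.0115). After the length and GC correction it was 1.00 (limma adjusted p = 0.0484; 0.0102 to 0.628 over its alternatives). Slc25a28, the mitoferrin of most other tissues, was at 4.10, 3.82, 3.84 and 2.16 TPM at ZT20 and at 3.88, 2.72 and 2.09 TPM at ZT8, with overlap (log2 difference 0.20, limma adjusted p = 0.628). With 1 library left out the Slc25a28 difference ran from 0.047 to 0.38. The TPM ratio of Slc25a28 to Slc25a37 was 0.378 to 1.14 at ZT20 and 2.18 to 9.46 at ZT8. Erythroid markers (6 genes, none at 0 everywhere) overlapped between the groups: their summed level was 5013, 2373, 4272 and 6691 TPM at ZT20 and 1604, 9546 and 952 TPM at ZT8. In 6 samples Slc25a37 was higher where that sum was higher, except that ZT20 replicates 2 and 3 were in the opposite order, while ZT8 replicate 2, the library with the fewest genes above 0 TPM, had the highest sum and the lowest Slc25a37. The part of red cells in the Slc25a37 difference was not tested. Of 12 enzymes of heme and iron-sulphur cluster synthesis 2 were higher at ZT20 and 0 lower, near the 12.8% of all genes that were higher, and the median log2 difference of the list was 0.11 beside 0.23 over all genes. The 2 enzymes were Fech, which inserts iron into heme, at 0.73 (limma adjusted p = 0.00959) and Alas1, the first enzyme of heme synthesis, at 0.61 (limma adjusted p = 0.0342). Slc25a37 overlaps 4 other genes in GENCODE M21, 1 of them on its own strand, so its reads are uncertain.

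**Figure D4:**
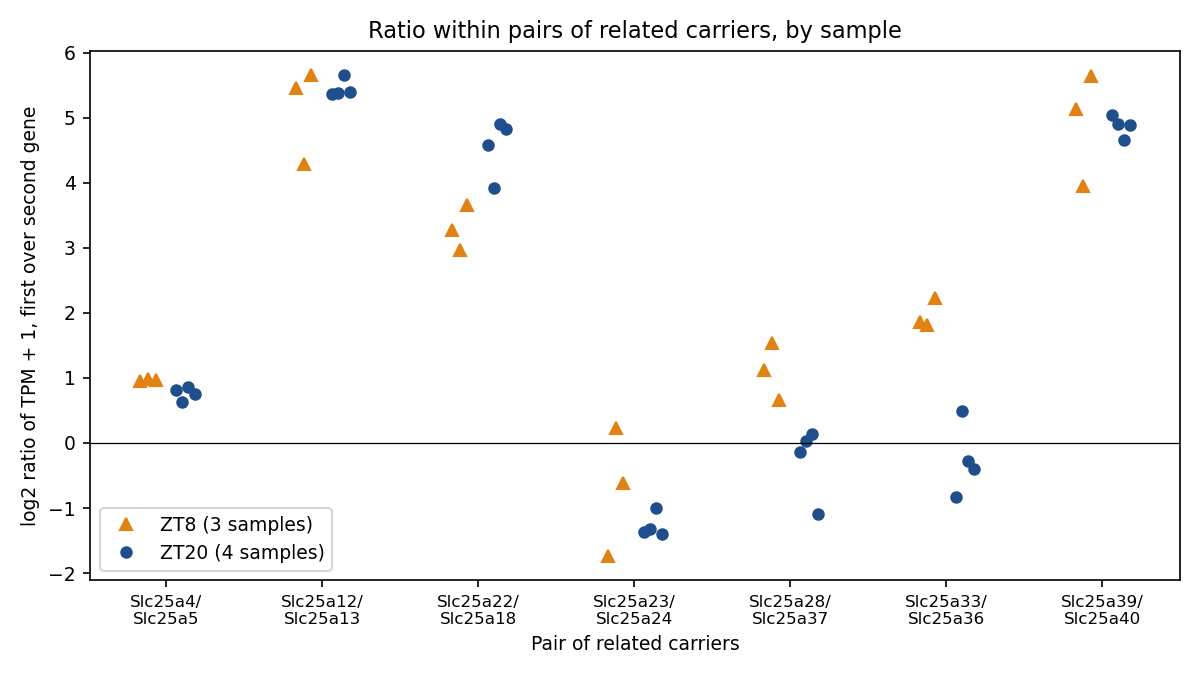
Log2 ratio of TPM + 1 within 7 pairs of related Slc25 carriers in each sample, first over second gene, with triangles for ZT8 (3 samples) and circles for ZT20 (4 samples). The groups are apart in 4 pairs (Slc25a4/Slc25a5, Slc25a22/Slc25a18, Slc25a28/Slc25a37 and Slc25a33/Slc25a36), and the Slc25a33/Slc25a36 pair has the widest distance between group means, −2.22. Those 2 genes are each apart in opposite directions, so their ratio had to be apart. No share was taken over other pairs of genes, and 33.2% of all single genes tested do not overlap.

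The ADP/ATP carriers exchange cytosolic ADP for matrix ATP, and neither passed the test. Slc25a4, the isoform of heart, muscle and brain, was at 1979, 1606, 1812 and 1811 TPM at ZT20 and at 2121, 1843 and 2486 TPM at ZT8. The log2 difference was −0.25 with overlapping groups (limma adjusted p = 0.213), and it passed at −0.50 under median-ratio scaling (limma adjusted p = 0.0394; 0.0394 to 0.910 over its alternatives). Without ZT8 replicate 3 it was −0.14. Slc25a5, the isoform of dividing and many other cells, was at 1126, 1033, 994 and 1076 TPM at ZT20 and at 1097, 931 and 1266 TPM at ZT8, with a log2 difference of −0.045 (limma adjusted p = 0.820). Slc25a4 was the more abundant of the pair in every sample. Its TPM ratio to Slc25a5 was 1.76, 1.55, 1.82 and 1.68 at ZT20 and 1.93, 1.98 and 1.96 at ZT8, without overlap, so the pair leaned further toward Slc25a4 at ZT8. A related pseudogene row, Slc25a5-ps, was at 0.208 to 1.41 TPM, and reads shared with such copies could not be followed. The phosphate carrier Slc25a3, which imports the phosphate that ATP synthase joins to ADP, was at 715, 643, 697 and 665 TPM at ZT20 and at 655, 553 and 826 TPM at ZT8 (log2 difference 0.022, limma adjusted p = 0.925). Its ZT8 samples enclosed the whole ZT20 range.

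Carriers that exchange ATP-magnesium for phosphate set the adenine nucleotide content of the matrix and are stimulated by calcium. The abundant member was Slc25a25, at 92.4, 78.2, 92.3 and 95.5 TPM at ZT20 and at 90.8, 69.4 and 78.4 TPM at ZT8 (log2 difference 0.17, limma adjusted p = 0.385). The Slc25a25 difference was 0.082 without ZT8 replicate 2 and 0.27 without ZT8 replicate 1. Slc25a24 was at 7.72, 7.07, 7.54 and 8.91 TPM at ZT20 and at 6.07, 1.03 and 3.71 TPM at ZT8, and Slc25a23 was at 2.38, 2.24, 3.28 and 2.74 TPM at ZT20 and at 1.12, 1.37 and 2.06 TPM at ZT8. In both the ZT20 samples lay above the ZT8 samples, but the log2 differences, 1.11 and 0.55, were short of the threshold (limma adjusted p = 0.0807 and 0.154). The Slc25a23 difference ran from 0.21 to 0.80 over its alternatives. Without ZT8 replicate 1 Slc25a24 passed at 1.51 (limma adjusted p = 0.0309; 0.0309 to 0.738 over its alternatives), and without ZT8 replicate 2 its difference was 0.61 and did not pass. Slc25a23 overlaps antisense genes in GENCODE M21.

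The uncoupling protein-like carriers are found mainly in brain and kidney. Slc25a14 (ENSMUSG00000031105), the most abundant of the 3, was at 51.6, 55.7, 57.4 and 49.3 TPM at ZT20 and at 78.3, 68.5 and 76.3 TPM at ZT8. It was lower in all ZT20 samples, at 53.5 ± 3.70 TPM (SD, n = 4) against 74.4 ± 5.17 TPM (SD, n = 3), and the difference came to −0.47 ± 0.12 on the log2 scale (SE; limma adjusted p = 0.0329). The gene lies on the X chromosome, as do Slc25a5, Slc25a43 and Slc25a53. ZT20 replicate 1, which had Y-linked transcripts and hardly any Xist, lay within the range of the other ZT20 samples for Slc25a14 and Slc25a43, above it for Slc25a5 and below it for Slc25a53 (7.38 against 9.27 to 11.0 TPM). Slc25a27 was at 14.7, 14.6, 18.0 and 16.5 TPM at ZT20 and at 13.8, 12.1 and 13.6 TPM at ZT8, apart but not past the threshold (log2 difference 0.26, limma adjusted p = 0.278). Slc25a30 was at 18.3, 12.6, 14.8 and 16.1 TPM at ZT20 and at 8.44, 0.305 and 9.35 TPM at ZT8. Its difference, 1.70 ± 0.65 on the log2 scale, was short of the threshold (SE; limma adjusted p = 0.103). It was the largest of the family on the scale of TPM + 1, but not with a pseudocount of 0.1 (2.27, beside 2.42 for Slc25a37). Without ZT8 replicate 2 the Slc25a30 difference was 0.72 and passed (limma adjusted p = 0.0277; 0.0277 to 0.722 over its alternatives).

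Of the aspartate and glutamate carriers 0 of 4 passed the limma test, and 1 (Slc25a22) had an unadjusted p under 0.05. Slc25a12, the aspartate/glutamate carrier of brain and muscle, was at 117, 92.2, 119.8 and 133 TPM at ZT20 and at 107, 77.9 and 131 TPM at ZT8. Slc25a13, the isoform of liver, was at 1.87, 1.24, 1.39 and 2.18 TPM at ZT20 and at 1.45, 3.05 and 1.601 TPM at ZT8. Slc25a12 was thus 25.6 to 86.3 times as abundant as Slc25a13 in every sample, and the groups overlapped in both (log2 differences 0.15 and −0.16). The glutamate carrier Slc25a22 was at 110.1, 68.0, 108 and 101 TPM at ZT20 and at 80.5, 42.8 and 54.1 TPM at ZT8 (log2 difference 0.73, limma adjusted p = 0.0732). ZT20 replicate 2 lay inside the ZT8 range, and the test was passed without ZT20 replicate 2 (0.89) or without ZT8 replicate 1 (0.97; limma adjusted p = 0.0446 and 0.0325, and 0.0325 to 0.751 over the alternatives). With values corrected for length and GC content the Slc25a22 difference was 0.087, and without ZT8 replicate 2 it was 0.52. Slc25a18, the glutamate carrier of astrocytes in the brain, was at 3.65, 3.57, 2.63 and 2.61 TPM at ZT20 and at 7.46, 4.61 and 3.36 TPM at ZT8 (log2 difference −0.53, limma adjusted p = 0.205). Without ZT8 replicate 1 the Slc25a18 difference was −0.27, with the marker score covariate it was −0.22, and under quantile normalization it was −0.85. The TPM ratio of Slc25a22 to Slc25a18 was 30.1, 19.1, 41.2 and 38.9 at ZT20 and 10.8, 9.29 and 16.1 at ZT8, without overlap. In the same samples 3 of 8 satellite glia markers passed as lower and 0 as higher at ZT20, and 3 of 12 neuron markers passed as higher and 0 as lower, beside 12.8% of all genes higher and 3.61% lower. The glia markers S100b, Kcnj10 and Cdh19 had positive differences and the neuron markers Uchl1 and Isl1 negative ones, none of which passed. The part of these cells in that ratio was not tested. The length and GC correction lowered the difference in the log2 ratio from 1.26 to 0.64. The 4 enzymes of the malate-aspartate shuttle (Got1, Got2, Mdh1 and Mdh2) had log2 differences from −0.17 to 0.31, and 0 passed the limma test at an adjusted or an unadjusted p under 0.05.

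Carboxylate carriers feed the tricarboxylic acid cycle and lipid synthesis, and 0 of the 4 tested passed the limma test or reached an unadjusted p under 0.05. The citrate carrier Slc25a1, which exports citrate for fatty acid synthesis, was at 165, 155, 157 and 158 TPM at ZT20 and at 182, 134 and 229 TPM at ZT8 (log2 difference −0.16, limma adjusted p = 0.525). The oxoglutarate carrier Slc25a11 was at 106, 91.5, 113 and 100.2 TPM at ZT20 and at 92.6, 100.02 and 116 TPM at ZT8, nearly the same range. The dicarboxylate carrier Slc25a10 was at 12.1 to 24.4 TPM and Slc25a35 at 0.320 to 6.91 TPM, both with their lowest value in ZT8 replicate 2. Of 5 enzymes around citrate export, 2 were higher at ZT20 and 0 lower, with a list median of 0.70, where 12.8% of all genes were higher and the median of all genes was 0.23. They were Acly, which splits exported citrate, at 0.70 (limma adjusted p = 0.0204), and Acaca, the committed enzyme of fatty acid synthesis, at 1.12 (limma adjusted p = 0.00745).

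Among carriers of amino acids and of carnitine 0 of 6 tested passed. Slc25a20, the carnitine/acylcarnitine carrier, was at 49.8, 63.0, 51.3 and 58.4 TPM at ZT20 and at 72.3, 96.8 and 64.8 TPM at ZT8. Its ZT20 samples lay below the ZT8 samples (log2 difference −0.47, limma adjusted p = 0.0865), and under median-ratio scaling it passed at −0.71 (limma adjusted p = 0.0393; 0.0393 to 0.807 over its alternatives). It was smaller without ZT8 replicate 2, at −0.30, and with the marker score covariate, at −0.15. Slc25a44, the carrier of branched-chain amino acids, was at 21.6, 20.6, 24.2 and 23.6 TPM at ZT20 and at 16.0, 5.27 and 15.1 TPM at ZT8 (log2 difference 0.97, limma adjusted p = 0.0767). Without ZT8 replicate 2 the Slc25a44 difference was smaller, 0.50, and passed (limma adjusted p = 0.0347; 0.0347 to 0.737 over its alternatives). The glycine carrier Slc25a38, needed for heme synthesis, was at 68.8 to 85.1 TPM, the basic amino acid carrier Slc25a29 at 12.1 to 23.8 TPM, the ornithine carrier Slc25a15 at 2.68 to 7.09 TPM and Slc25a2 at 0.334 to 1.80 TPM, each with overlapping groups.

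The glutathione carriers, which bring the antioxidant glutathione into the matrix, overlapped between the groups. Slc25a39 was at 274, 199.5, 258 and 284 TPM at ZT20 and at 313, 152 and 313 TPM at ZT8 (log2 difference 0.031, limma adjusted p = 0.941). Slc25a40 was at 7.34, 5.68, 9.20 and 8.67 TPM at ZT20 and at 7.97, 8.88 and 5.25 TPM at ZT8 (log2 difference 0.069, limma adjusted p = 0.860). Slc25a39 was 17.2 to 59.6 times as abundant as Slc25a40, with both ends of that range at ZT8. The outer membrane member Slc25a46, which takes part in mitochondrial fusion and is mutated in inherited neuropathies, was at 66.9 to 98.7 TPM at ZT20 and 65.7 to 76.6 TPM at ZT8 (log2 difference 0.19, limma adjusted p = 0.410). The members left without an assigned substrate here, Slc25a53, Slc25a45, Slc25a47 and Slc25a43, were at 1.38 to 11.0 TPM and did not pass.

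Direction went with transcript length. The 3 higher members had longest transcripts of 5927 nt (Slc25a37), 5227 nt (Slc25a36) and 3657 nt (Slc25a42) in GENCODE M21, and the 3 lower members 1887 nt (Slc25a33), 1862 nt (Slc25a14) and 1724 nt (Slc25a17). Across the 41 tested members, which share the same libraries and are not independent, Spearman's rho between log2 difference and length was 0.51, beside 0.41 over 14745 genes. The median length was 3121 nt in the members and 3108 nt in all genes. After the length and GC correction rho was 0.15 over the members, and Slc25a37, Slc25a33, Slc25a17 (−0.55) and Slc25a14 (−0.43) still passed, while Slc25a36 and Slc25a42 (0.34) did not.

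**Figure D5:**
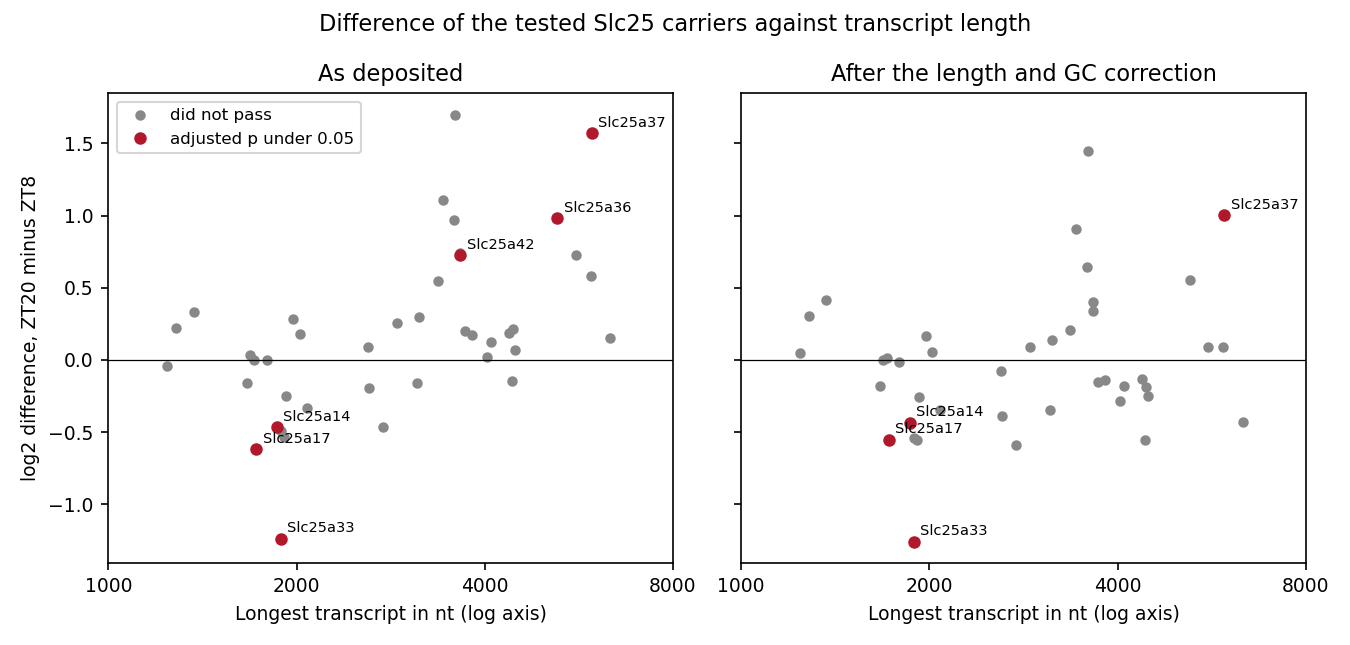
Log2 difference (ZT20 minus ZT8) of the 41 tested Slc25 members against the length of the longest transcript (log axis), as deposited and after each sample was corrected for length and GC content. Red points passed an adjusted p-value of 0.05: 6 members on the left, long ones above 0 and short ones below, and 4 on the right.

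Since the groups did not overlap in any of the 6 members past the threshold, leaving out libraries could not turn the direction of a group mean difference, and only the sizes and tests of the reduced sets are given. Without ZT20 replicates 3 and 4, the libraries that went against the label male, the log2 differences were 1.53 for Slc25a37, 0.88 for Slc25a36, 0.57 for Slc25a42, −1.25 for Slc25a33, −0.60 for Slc25a17 and −0.46 for Slc25a14. With those 2 against 3 samples limma called 0 of all genes, while 2378 genes and 5 members had an unadjusted p under 0.05. With ZT20 replicate 1 alone against ZT8 the 6 values were 1.66, 0.83, 0.67, −1.96, −0.66 and −0.52 in the same order. In that fit the spread came from the 3 ZT8 samples alone, the lone ZT20 library being assumed to vary like them, so only the sizes are given. Adding a marker score per sample (neuronal less non-neuronal genes) as a covariate also left 0 genes called by limma (2355 unadjusted), with values of 1.65, 1.24, 0.88, −0.93, −0.58 and −0.53. When 1 library was left out, Slc25a37 passed in all 7 fits (limma adjusted p = 0.0102 to 0.0456), with a ZT8 mean under 1 TPM when all libraries were kept. Slc25a17 (−0.60 and −0.62; limma adjusted p = 0.0604 and 0.0529) and Slc25a36 (0.93 and 0.96; limma adjusted p = 0.0586 and 0.0547) did not pass without ZT20 replicate 3 or without ZT20 replicate 4. Slc25a33 did not pass without ZT20 replicate 3, ZT20 replicate 4, ZT8 replicate 2 or ZT8 replicate 3 (−1.27 to −1.10; limma adjusted p = 0.0580 to 0.0804). Slc25a14 passed only without ZT8 replicate 2 (−0.52) and otherwise had limma adjusted p = 0.0534 to 0.101, and Slc25a42 passed only without ZT8 replicate 1 (0.86) and otherwise had limma adjusted p = 0.0541 to 0.139.

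The genes that surround the carriers were read from lists of 3 to 16 tested genes. Their counts stand beside 12.8% of all genes higher and 3.61% lower at ZT20 and are too small to set a list apart. Values of list genes, here and above, come from the main fit alone. None is given after the length and GC correction, under other scaling or with a library left out. Of the 13 genes of carrier import and insertion 1 was higher at ZT20, Agk, a subunit of the TIM22 complex, at 0.79 (limma adjusted p = 0.0138), and 0 were lower. The median log2 difference of that list was −0.34, against 0.23 over all genes, and Timm22, the channel that inserts carriers, averaged 169.7 TPM at ZT20 (SD 17.7, n = 4) and 220.1 TPM at ZT8 (SD 16.2, n = 3) without passing (limma adjusted p = 0.0627). Of 16 other transporters of the inner membrane 4 were higher and 3 lower. Mcu, the pore of the calcium uniporter, and its regulator Micu3 were higher by 0.84 and 1.64, as was Sfxn5 (1.41). Both subunits of the pyruvate carrier were lower, Mpc1 at −0.57 and Mpc2 at −0.68 (limma adjusted p = 0.0225 and 0.0210), and so was Sfxn4 (−0.66). Of the outer membrane channels, Vdac3 was lower at −0.37 (limma adjusted p = 0.0498) and Vdac1 and Vdac2 did not pass. Relatives of the family under other names did not pass: in ZT20 and ZT8 samples, Mtch2 averaged 194 and 232 TPM, Mtch1 80.9 and 66.6 TPM, and the uncoupling protein Ucp2 45.2 and 50.2 TPM. Ucp1 and Ucp3 had means under 1 TPM. Of 7 regulators of mitochondrial biogenesis 1 was higher, Gabpa at 0.72 (limma adjusted p = 0.0359), while Ppargc1a (7.27 and 6.86 TPM on average) and Tfam (10.4 and 9.76 TPM) did not pass. Of the carnitine shuttle enzymes 1 of 4 tested was higher, Crat at 0.96 (limma adjusted p = 0.0228), and of the urea cycle enzymes 0 of 4 passed. Transcripts of the mitochondrial genome summed to 18554 to 28012 TPM at ZT20 and 9229 to 20287 TPM at ZT8, and their removal left the same 6 members past the threshold.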

How the data were processed

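The deposited file is a table of TPM, which the authors normalized within each sample, so each of the 7 columns sums to 1000000. Per the submitters' processing notes, FastQC 0.11.9, Trim Galore 0.6.6, Salmon 1.6.0, DESeq2 1.34.0 and build GRCm39 were used; the annotation release is not given in the sources used here. Columns were mapped to samples by title. TPM keeps no read depth, so depth and counting error are unknown. A rise of a few abundant genes lowers all other values.

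Values were analysed as log2(TPM + 1), a scale that understates the change of low genes. Genes averaging 1 TPM or more were fitted with limma 3.58.1 (intensity trend, two-sided, all 7 samples, no covariate, R 4.3.3). In simulated data for 14800 genes with 200 changed by 1.5 on the log2 scale, 66.0% of those were called and 3.65% of calls were unchanged genes. The simulation drew noise for each gene on its own, and 2433 genes were called in the data. Its rates therefore do not carry over to these calls. Alternatives changed the pseudocount (0.1), filter (none, or 5 TPM), scaling, length and GC correction (loess, span 0.3), covariates and samples. Transcript length, GC content and overlaps came from GENCODE M21 (GRCm38), matched by identifier for all 47 members; promoters came from RefSeq (GRCm38.p6), matched by symbol. No coordinates of the table's own build are given.

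Named in full are members past the threshold, the 10 most abundant, 7 pairs of related carriers and the other tested ADP/ATP, ATP-magnesium/phosphate, uncoupling protein-like and glutamate carriers; of the lists, genes past the threshold are named. The per-sample values of Slc25a20, Slc25a32 and Slc25a44 and the list genes not past the threshold were chosen after their values were seen. Members and lists were chosen with earlier results of these data known. Single genes, among them 1 tested member, are counted in totals but not reported here.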

Additional observations from a re-analysis of the deposited data

Results flagged for a closer look

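In the ZT20 group 53 results (tested members, summed levels and pair ratios) were examined for 1 sample far from the other 3, by the gap to the nearest sample as a share of the whole range, and 2 exceeded the 95% critical share of Dixon's test. Chance alone gives about 2.65 in 53. For Slc25a28 the gap share was 0.859, with 2.16 TPM in ZT20 replicate 4 against 3.82 to 4.10 TPM in replicates 1, 2 and 3. The log2 ratio of Slc25a12 to Slc25a13 was 5.66 in ZT20 replicate 3 and 5.36 to 5.40 in the others, a share of 0.883. The ZT8 group, with 3 samples, was not examined.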

How the results depend on the processing

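The cause was not tested for any of these changes. The number of genes past the threshold was 2433 as reported, 1178 without a filter, 1361 with values corrected for length and GC content, and 723 to 3047 when 1 replicate was left out. It was 0 with the marker score covariate and without ZT20 replicates 3 and 4, and in those fits 0 members were higher and 0 lower. Members higher at ZT20 numbered 1 under quantile normalization, 1 after the length and GC correction, and 1 to 5 with 1 replicate left out. Members lower at ZT20 numbered 5 under median-ratio scaling and 0 to 2 with 1 replicate left out (0 without ZT20 replicate 3 or 4, when Slc25a37 alone passed). The replicate number as a block left 1174 genes, 1 member higher (Slc25a22) and 2 lower (Slc25a17 and Slc25a33). The numbers were not shown to pair the samples: deviations of same-numbered samples correlated at −0.014, 0.15 and 0.083, and not every sample correlated best with its own number. Deviations from the means of 4 and 3 samples constrain each other, so the check cannot exclude a pairing.

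The median log2 difference of the members, 0.15, was −0.097 under median-ratio scaling, −0.028 under quantile normalization, −0.077 after the length and GC correction, 0.020 without ZT20 replicates 3 and 4, and 0.046 to 0.22 with 1 replicate left out. The difference in log2 ratio moved to −0.30 for Slc25a4/Slc25a5 and 0.64 for Slc25a22/Slc25a18 after the length and GC correction, and to −2.16 for Slc25a28/Slc25a37 with a pseudocount of 0.1. For pairs whose groups overlapped it moved widely with 1 replicate left out. It ran from −0.11 to 0.58 for Slc25a12/Slc25a13 (0.31 with all samples) and −1.07 to −0.094 for Slc25a23/Slc25a24 (−0.56). For Slc25a39/Slc25a40 it ran from −0.52 to 0.33 (−0.038 with all samples). Of 26 named members 15 kept their sign under every alternative run. The other 11 were not past the threshold in any fit. Under median-ratio scaling the sign changed for Slc25a3 (−0.23), Slc25a39 (−0.22), Slc25a12 (−0.097), Slc25a11 (−0.25), Slc25a25 (−0.073) and Slc25a40 (−0.15). Under quantile normalization it changed for Slc25a11 (−0.031), Slc25a27 (−0.028), Slc25a40 (−0.28) and Slc25a28 (−0.091). After the length and GC correction it changed for Slc25a5 (0.049), Slc25a3 (−0.29), Slc25a39 (−0.0042), Slc25a12 (−0.43), Slc25a25 (−0.14), Slc25a40 (−0.25) and Slc25a28 (−0.15). With the marker score it changed for Slc25a3 (−0.27), Slc25a39 (−0.22), Slc25a12 (−0.077), Slc25a11 (−0.23) and Slc25a13 (0.017). With the replicate block it changed for Slc25a39 (−0.027). Without ZT20 replicates 3 and 4 it changed for Slc25a39 (−0.074), Slc25a11 (−0.056) and Slc25a40 (−0.14), and without ZT20 replicates 2, 3 and 4 for Slc25a5 (0.047). With 1 replicate left out the values ran from −0.16 to 0.063 for Slc25a5, −0.12 to 0.17 for Slc25a3, −0.31 to 0.20 for Slc25a39, −0.36 to 0.021 for Slc25a1, −0.048 to 0.32 for Slc25a12, −0.071 to 0.087 for Slc25a11, −0.13 to 0.20 for Slc25a40 and −0.30 to 0.064 for Slc25a13.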
